A study of Mus musculus with 18 samples.

Results

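Liver transcripts of adult mice at postnatal day 150 were compared with those of pups at postnatal day 21, all born to dams that ate a high protein diet in pregnancy. The arrays were chosen by their titles, which gave 3 arrays at each day and 6 of the 18 arrays of the series. The offspring belonged to DUK, an outbred mouse line bred by crossing several outbred and inbred lines, and the labels name no altered gene in any group. Their dams ate 40% protein by weight in pregnancy and the 20% control diet in lactation, so both ages shared the prenatal exposure and the feeding in lactation. The 12 other arrays came from offspring of dams fed 20% protein throughout (control) or 40% protein in lactation alone, again with 3 arrays at day 21 and 3 at day 150 each. They were used to compare the change with age. They also entered the shared estimate of the spread, the filter on dim probe sets and the choice of probe set. The diets had equal energy, and the labels give neither the sex of the offspring nor the hour at which livers were taken. Each array carried RNA pooled from several livers. The labels give different numbers of animals per pool and do not say whether pools of a group share animals, so every error below is the spread between pools, which may be technical, and p-values are too small if pools share animals.

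Day 21 is the age of weaning in mice, and the liver is still finishing its development then. As background, the postnatal liver silences fetal genes such as the one for alpha-fetoprotein and leaves the milk-fed state, in which it burns much fat. At puberty it takes on a sex-specific set of cytochrome P450 enzymes, sulfotransferases and carriers: male mice release growth hormone in pulses, which act through the growth hormone receptor, the kinase Jak2 and the factor Stat5b, and females release it more evenly.

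The 6 arrays parted by day before any gene was tested. The correlation of log2 signals across genes lay between 0.978 and 0.987 for arrays of the same day and between 0.940 and 0.955 for arrays of different days. The summed signal of 18 hepatocyte markers overlapped between the days (434601 to 517366 at day 21 and 469760 to 580896 at day 150), and 0 of the 18 passed the test in either direction. Alb, the gene of albumin, the main secreted protein of hepatocytes, had signals of 28571, 22119 and 27412 at day 21 and 28225, 32814 and 36530.1 at day 150, which overlap (log2 change 0.32, SE 0.19, adjusted p = 0.25). Xist, an RNA that coats the inactive X chromosome in females, had a signal of at most 79.4 on all of its 3 probe sets on all 6 arrays. A sign of RNA quality did move with age: the ratio of the 3′ to the 5′ control probe sets for Gapdh was 0.844 to 0.984 at day 21 and 1.67 to 1.80 at day 150, and that for Actb was 1.96 to 3.15 and 6.07 to 6.50. Such a ratio rises when RNA is degraded or copied less far from its 3′ end. With both ratios in the model only 3 genes passed and 195 of the genes that passed without them changed sign, so age and RNA quality cannot be told apart in these arrays, and the median of each gene list under that model is given beside it below. The median SE of the log2 change was 0.50 in that model and 0.19 without the ratios, so values from it are imprecise.

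**Figure D1:**
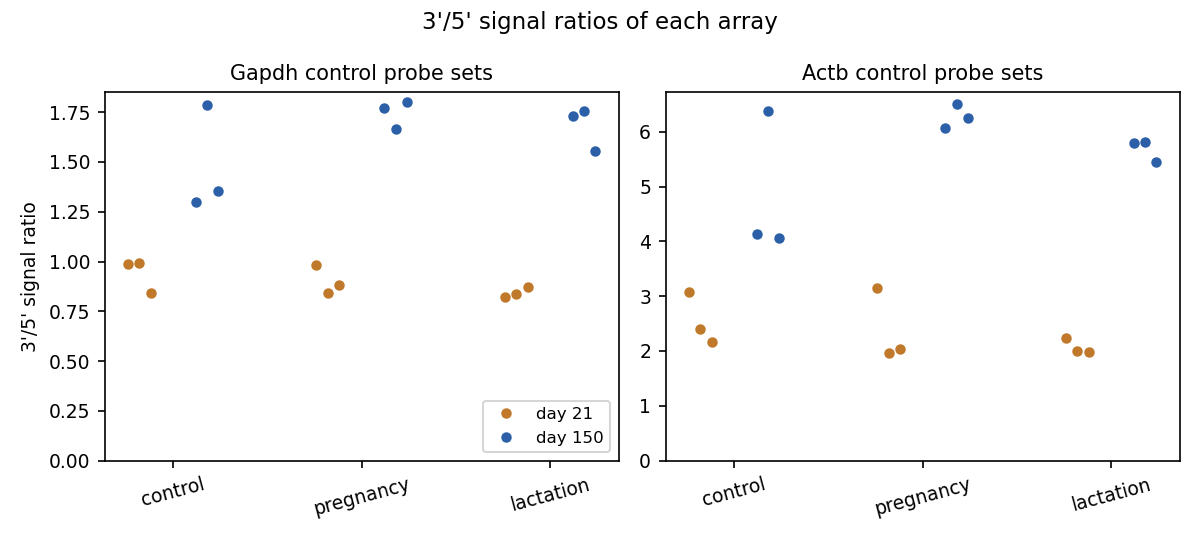
Each point is 1 array, and the vertical axis is the signal of the 3′ control probe set divided by that of the 5′ set for Gapdh (left) and Actb (right), by maternal diet group (control, high protein in pregnancy, high protein in lactation) and day. The 3 pregnancy arrays of day 150 (Gapdh 1.67 to 1.80) lie above the 3 of day 21 (0.844 to 0.984), and the days part in the same way in the other groups.

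Of 11018 genes tested, 2602 (23.6%) differed between the days at an adjusted p under 0.05 (limma's moderated test over all genes, Benjamini-Hochberg). These were 1333 genes (12.1%) that were higher at day 150 and 1269 (11.5%) that were lower. Changes of more than 2-fold were seen for 283 of the genes that rose and 330 of those that fell, and more than 4-fold for 59 and 73. The median log2 change over all genes was 0.02. The 3 signals of day 150 all lay above those of day 21 for 2561 genes (23.2%) and all below them for 2281 (20.7%). Genes named below were mostly picked by a small p or among genes without overlap. A lack of overlap in them is therefore no separate result. The count of 2602 was 1663 without the second array of day 21 and 1643 without the third. With the 75th percentiles of the arrays set equal it was 2652, of which 64.1% were higher at day 150 against 51.2% here.

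**Figure D2:**
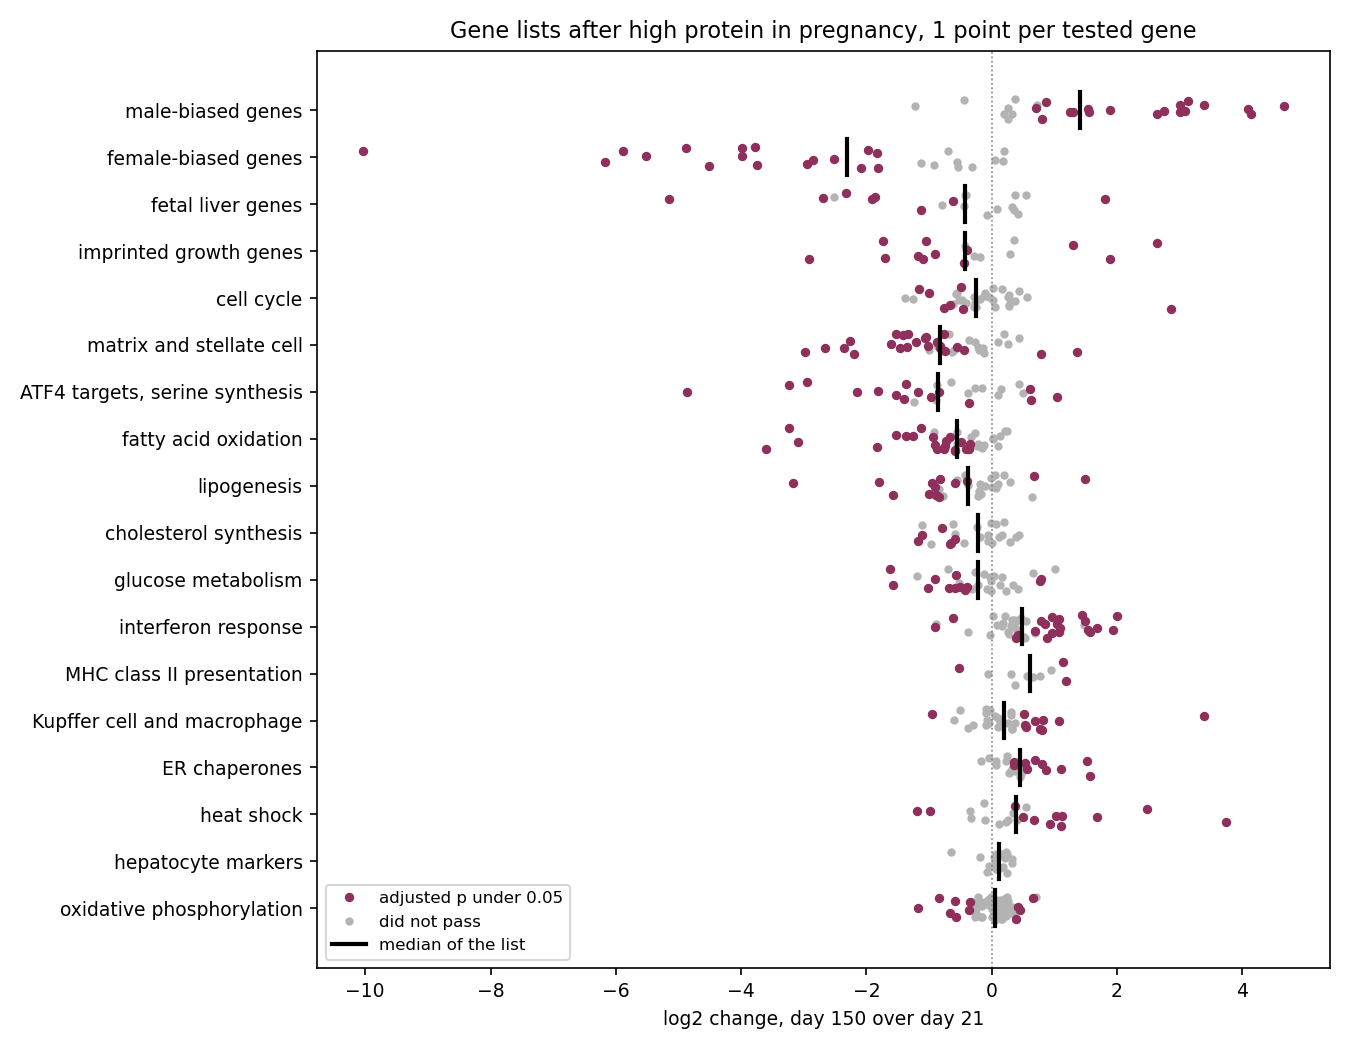
Each point is 1 tested gene, placed by its log2 change from day 21 to day 150 after high protein in pregnancy; coloured points passed at an adjusted p under 0.05, grey ones did not, and the black bar is the median of the list (a gene can stand in several lists). Female-biased genes (median -2.30) and male-biased genes (median 1.42) lie farthest from the median of 0.02 over all genes, and hepatocyte markers (0.12) close to it. With the 3′/5′ ratios in the model the hepatocyte median was -0.47.

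Genes with a known sex bias in mouse liver had the list medians farthest from 0 among the 50 gene lists described. Of 26 tested genes known to be higher in males, 18 rose and 0 fell, with a median log2 change of 1.42 (0.76 with the 3′/5′ ratios in the model). Cyp7b1, an oxysterol hydroxylase and a marker of the male liver, had signals of 1731, 1414 and 1455 at day 21 and 25959, 27287 and 27615 at day 150. All 3 adult pools lay far above the pups, a 17.6-fold rise (log2 change 4.14, SE 0.16, adjusted p = 6.0e-12). It was also 1 of the 3 genes that passed in the model with the ratios (log2 change 3.70), and the only gene of this list that did. Elovl3, which lengthens very long fatty acids, had signals of 305.0, 461.7 and 383.9 at day 21 and 16330.0, 6468 and 8275 at day 150 (log2 change 4.66, SE 0.41, adjusted p = 5.4e-07). The steroid-reducing enzyme gene Hsd3b5 had signals of 1135, 2349 and 1987 at day 21 and 15919, 14037 and 14542 at day 150 (log2 change 3.09, SE 0.42, adjusted p = 5.7e-05). For both genes every adult pool was above every pup pool, and the first adult pool carried the highest Elovl3 signal. The fatty acid hydroxylase Cyp4a12a rose by 3.00 on the log2 scale (SE 0.31), the acetyltransferase Nat8 by 4.09 (SE 0.36), the terminal complement component C6 by 3.39 (SE 0.23), Susd4, a regulator of complement, by 3.14 (SE 0.28) and the serpin vaspin, Serpina12, by 3.00 (SE 0.40). Not all of the list moved. The organic anion carrier Slco1a1 already had signals of 14428, 15283 and 17014 at day 21, and its log2 change of 0.26 did not pass (adjusted p = 0.2). Mup3, a major urinary protein, had signals of 23654, 21185 and 25360.1 at day 21 and 17234, 17849 and 16326 at day 150 and did not pass either (log2 change -0.45, SE 0.29, adjusted p = 0.29).

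Of 26 tested genes known to be higher in females, 17 fell and 0 rose, with a median of -2.30 (-1.49 with the 3′/5′ ratios in the model, where 0 passed). The size of the median depended on dim signals. With 50 added to every signal it was -1.65 and 14 fell. With the filter at the 70th percentile it was -1.83 and 9 of 17 fell. Sult2a2, a sulfotransferase for steroids and bile acids, had signals of 17404, 9130.4 and 7905 at day 21 and 5.6, 3.8 and 51.5 at day 150. The 3 pup pools were among the brighter signals of the array, and the 3 adult pools lay below 57.5, the signal that the filter on dim probe sets required on average (log2 change -10.03, SE 0.91, adjusted p = 6.1e-07). Such low signals have little precision, and with 50 added to every signal the change was -7.33. The peroxisomal oxidase Hao2, which oxidises 2-hydroxy acids, had signals of 2928, 4251 and 4803 at day 21 and 93.2, 59.7 and 51.2 at day 150 (log2 change -5.89, SE 1.09, adjusted p = 8.8e-04). Cyp3a44, a P450 of the drug-metabolising 3A family, had signals of 2472, 1669 and 837.3 at day 21 and 137.6, 53.5 and 118.6 at day 150 (log2 change -3.98, SE 0.57, adjusted p = 9.1e-05). In all of these the adult pools lay below the pup pools, and the third adult pool kept the highest Sult2a2 signal of the adults. Cyp39a1, which hydroxylates a side-chain oxysterol on the way to bile acids, fell by 3.75 on the log2 scale (SE 0.37), and Abcd2, a peroxisomal importer of very long fatty acids, by 2.86 (SE 0.42). Cyp2b9 fell by 3.99 (SE 0.84) and Cyp2b13 fell by 3.78 (SE 0.75, -1.87 with 50 added). With the ratios in the model, where errors are larger, the log2 change was -0.58 for Hao2, -0.31 for Cyp2b9 and -0.44 for Abcd2. Under every alternative Sult2a2 stayed at -6.2 or lower and Cyp39a1 at -2.9 or lower. Sult3a1 fell by 4.88 (SE 0.73, -3.23 with 50 added) and Cyp3a16 fell by 6.17 (SE 0.86, -1.96 with 50 added). Sult1e1, the estrogen sulfotransferase, fell by 4.51 (SE 0.96), but with 50 added its change of -1.47 no longer passed. Many of these genes have close paralogs, and a probe set may read more than 1 of them.

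**Figure D3:**
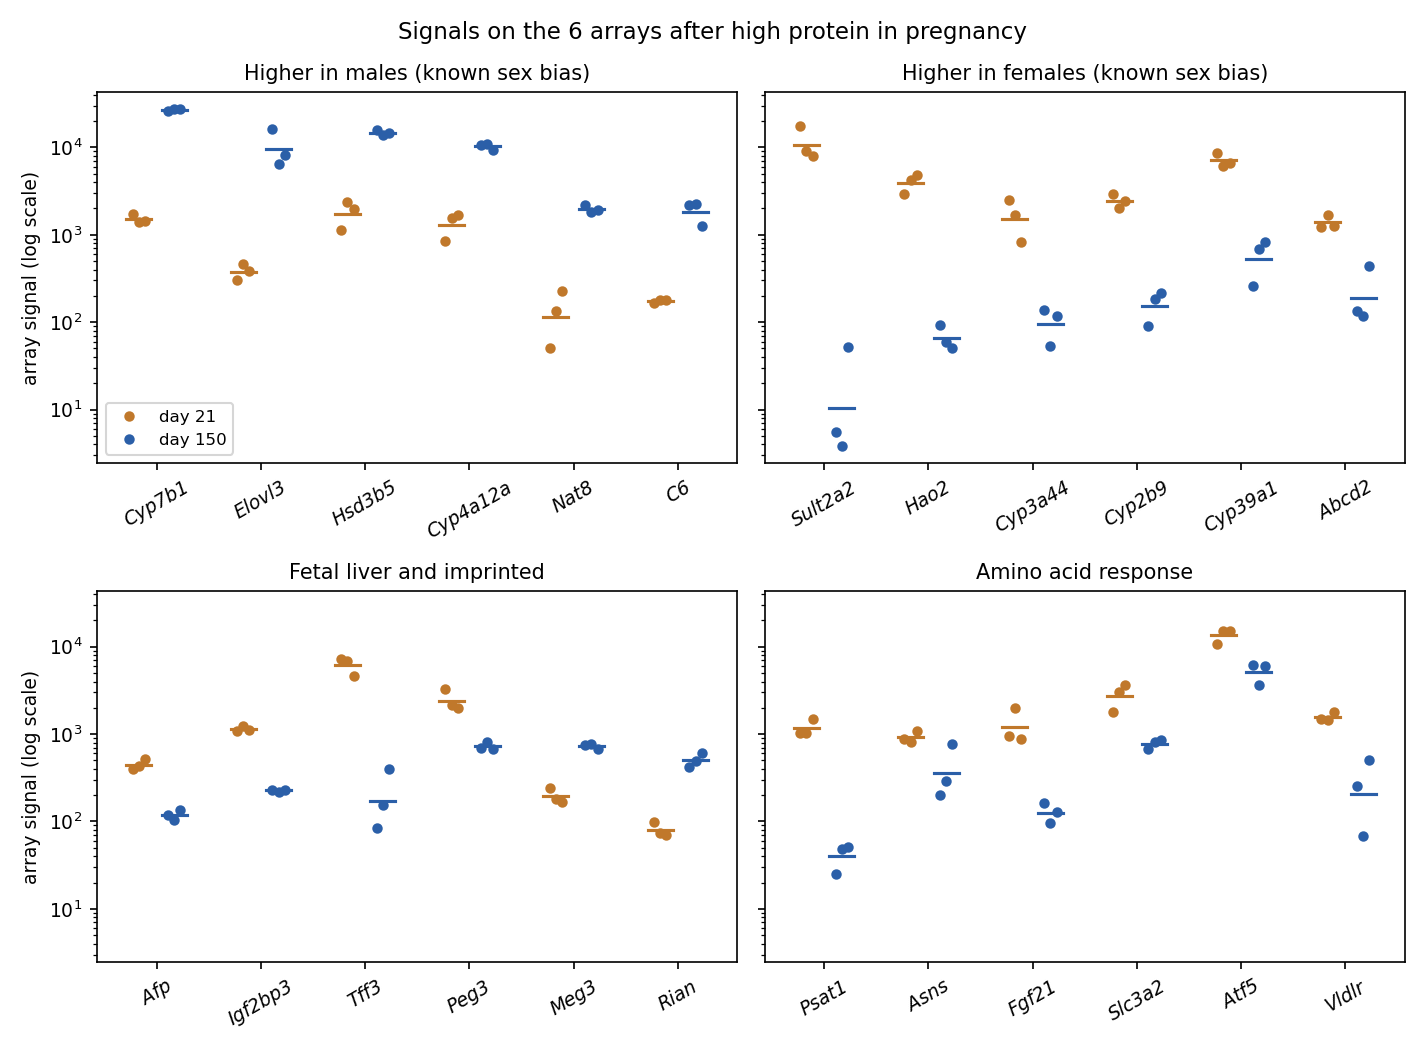
Points are the array signals (log scale) of the 3 pools of day 21 and the 3 of day 150 after high protein in pregnancy, and short bars are geometric means; the panels show genes known to be higher in males or in females, fetal and imprinted genes, and genes of the amino acid response. Sult2a2 falls from 17404, 9130.4 and 7905 to 51.5 or less. No gene shown has overlapping groups, but several were picked for that, so it is no separate result. Over all genes, 23.2% were higher at day 150 without overlap and 20.7% were lower.

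The growth hormone and IGF axis changed in parts. Of 23 tested genes 2 rose and 5 fell, with a median of 0.02 (-0.29 with the 3′/5′ ratios in the model). Both that rose belong to the signalling of growth hormone: its receptor Ghr, with signals of 15804, 14690.2 and 16922 at day 21 and 24949, 27017 and 25434 at day 150 (log2 change 0.71, SE 0.15, adjusted p = 0.0029), and Jak2, with signals of 848.7, 747.9 and 732.8 at day 21 and 1132, 1138 and 1202 at day 150 (log2 change 0.58, SE 0.12, adjusted p = 0.0021). Neither overlapped between the days. Igf1, the growth factor that growth hormone induces, had signals of 12834, 16088 and 16339.5 at day 21 and 14424, 15589 and 17421 at day 150 and overlapped (log2 change 0.07, SE 0.13, adjusted p = 0.74). Its binding proteins were lower in adults: Igfbp1, which is raised by fasting and low insulin, had signals of 37112, 24492 and 24717 at day 21 and 7479, 11176 and 5105 at day 150 (log2 change -1.91, SE 0.33, adjusted p = 4.6e-04), Igfbp2 fell by 1.01 on the log2 scale (SE 0.16) and Igfbp3, the main carrier in serum, by 1.32 (SE 0.20).

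Genes of the fetal and neonatal liver fell more often than they rose. Of 20 tested, 7 fell, 1 rose and 12 did not pass, with a median of -0.43 (-0.98 with the ratios in the model). Afp, alpha-fetoprotein, had signals of 396.1, 432.0 and 524.8 at day 21 and 117.9, 103.1 and 136.7 at day 150, with all adult pools below all pup pools (log2 change -1.92, SE 0.29, adjusted p = 1.6e-04). Igf2bp3, which encodes a fetal RNA-binding protein, had signals of 1088, 1223 and 1117 at day 21 and 230.8, 217.8 and 232.1 at day 150 (log2 change -2.33, SE 0.23, adjusted p = 1.9e-06). Tff3, a trefoil peptide, fell from 7328, 6887 and 4668 to 84.2, 156.0 and 394.5 (log2 change -5.16, SE 0.41, adjusted p = 1.5e-07). Lipoprotein lipase, Lpl, which the young liver makes and the adult liver makes little of, had signals of 18608, 16552 and 18494 at day 21 and 2775, 2651 and 2865 at day 150, about the same in all 3 adult pools (log2 change -2.69, SE 0.28, adjusted p = 2.4e-06). The glypican Gpc3 fell by 1.87 on the log2 scale (SE 0.47). Zbtb20, a known repressor of Afp, rose from 2229, 2101 and 1984 to 6457, 5939.5 and 3454 (log2 change 1.28, SE 0.27, adjusted p = 0.0021).

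Genes listed for the imprinted network that is active in early growth mostly fell. Of 17 tested, 9 fell and 3 rose, with a median of -0.42 (-0.41 with the ratios in the model). The count of 9 was 4 without the second array of day 21, 5 without the third and 5 without the first of day 150. Among those that fell were the paternally expressed genes Peg3, a zinc finger protein, with signals of 3271, 2156 and 2014 at day 21 and 697.7, 816.1 and 682.2 at day 150 (log2 change -1.73, SE 0.28, adjusted p = 2.7e-04), Sgce, a sarcoglycan, by 1.70 on the log2 scale (SE 0.22), and Mest by 1.18 (SE 0.29). Bex1, a member of the list whose own imprinting was not examined, fell by 2.92 (SE 0.50). The 3 that rose were Impact, an inhibitor of the kinase Gcn2, by 1.30 (SE 0.23) and a pair of maternally expressed long noncoding RNAs from 1 imprinted cluster. Of these, Meg3 had signals of 243.9, 183.0 and 168.4 at day 21 and 758.1, 763.2 and 668.1 at day 150 (log2 change 1.89, SE 0.28, adjusted p = 1.1e-04) and Rian had signals of 99.4, 74 and 70.4 at day 21 and 424.1, 492.5 and 603.4 at day 150 (log2 change 2.64, SE 0.30, adjusted p = 8.7e-06), without overlap.

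Of 35 tested cell cycle genes 6 fell and 1 rose, so that 20% passed against 23.6% of all genes. The median was -0.25 (-0.30 with the ratios in the model), and -0.093 without the second array of day 21. The count of 6 was 2 without the second or without the third array of day 21, and 3 without the second of day 150. Pcna, the sliding clamp of DNA replication, had signals of 2194, 3071 and 2675 at day 21 and 1396, 1598 and 1644 at day 150 (log2 change -0.77, SE 0.18, adjusted p = 0.0045). The gene that rose was E2f1, a factor that drives entry into S phase, with signals of 39.3, 30.4 and 3.9 at day 21 and 112.4, 120.4 and 133.1 at day 150, so that its level was dim in pups and its log2 change of 2.86 (SE 0.65) became 1.24 with 50 added.

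Genes induced by amino acid shortage and those of serine synthesis fell more often than they rose. As background, the factor Atf4 switches them on through short elements in their promoters when amino acids run short or other stress kinases are active. Of 26 tested, 12 fell and 3 rose, with a median of -0.86 (-0.66 with the ratios in the model). The size of the median depended on dim genes. It was -0.57 with 50 added to the signal and -0.38 with the filter at the 70th percentile, where 9 of 17 fell. Psat1, an enzyme of serine synthesis, had signals of 1031, 1026 and 1491 at day 21 and 25.2, 49 and 51.4 at day 150, with the adults below 57.5 (log2 change -4.87, SE 0.34, adjusted p = 3.5e-08; -3.74 with 50 added). Fgf21, a hormone of the fasted and the protein-restricted liver, had signals of 957.3, 1986 and 889.6 at day 21 and 163.5, 95.1 and 129.8 at day 150 (log2 change -3.24, SE 0.48, adjusted p = 1.2e-04). Vldlr, a receptor for triglyceride-rich particles, had signals of 1503, 1434 and 1799.8 at day 21 and 251.9, 67.5 and 503.8 at day 150, widely spread in adults (log2 change -2.94, SE 0.46, adjusted p = 2.1e-04). Slc3a2, the heavy chain of amino acid exchangers, fell by 1.81 on the log2 scale (SE 0.22), the factor Atf5 by 1.39 (SE 0.18), the cysteinyl-tRNA synthetase Cars by 1.17 (SE 0.21) and the pseudokinase Trib3 by 0.96 (SE 0.18). Asns, which makes asparagine, had signals of 869.6, 814.6 and 1097 at day 21 and 199.8, 292.2 and 765.8 at day 150. The third adult pool lay close to the pups (log2 change -1.37, SE 0.43, adjusted p = 0.027), and the call was lost when the second or the third array of day 21, or the first or the second of day 150, was left out (log2 change -1.46, -1.25, -0.96 and -1.23). Stbd1, which binds glycogen, was among the 3 that rose (log2 change 1.04, SE 0.16).

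The promoters of 22 of these 26 genes are in RefSeq's table for GRCm38.p6, with 26 windows. Of these windows 6, each of another gene, hold the amino acid response motif TGATGNAAN, searched on both strands in the 250 bases before the start. The share over all 32851 windows of the table is 3.44%. Of the 6 genes with the motif 3 passed the test, and of the other 16 genes 11 did. The windows of Fgf21 and Asns are shown because both fell and both hold the motif, in capitals; they were chosen after their values were seen. They are read 5′ to 3′ along the gene, at chr7:45615491-45615740 for Fgf21 and chr6:7693210-7693459 for Asns, both on the minus strand. The motif runs from base 140 to base 132 before the start of Fgf21, on the opposite strand, and from base 23 to base 15 before that of Asns. A match of letters is a description and not a measured binding site.
Fgf21: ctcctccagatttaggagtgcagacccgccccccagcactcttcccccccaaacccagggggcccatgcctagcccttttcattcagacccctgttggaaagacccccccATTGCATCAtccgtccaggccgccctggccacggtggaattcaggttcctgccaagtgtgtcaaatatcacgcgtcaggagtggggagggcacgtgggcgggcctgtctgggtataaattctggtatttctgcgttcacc
Asns: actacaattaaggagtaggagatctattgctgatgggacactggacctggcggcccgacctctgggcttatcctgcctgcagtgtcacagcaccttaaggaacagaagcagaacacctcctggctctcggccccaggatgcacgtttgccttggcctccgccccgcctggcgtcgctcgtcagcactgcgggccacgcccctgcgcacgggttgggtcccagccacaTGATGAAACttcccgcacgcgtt

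Genes of fuel use fell more often than they rose. Of 37 tested genes of fatty acid oxidation and its regulator Ppara, 22 fell and 0 rose, with a median of -0.56 (-0.67 with the ratios in the model). Vnn1, a pantetheinase and a strong Ppara target, had signals of 13444, 8293 and 9526 at day 21 and 618.5, 960.1 and 986.9 at day 150 (log2 change -3.61, SE 0.30, adjusted p = 2.4e-07). Cyp4a31, a fatty acid hydroxylase, had signals of 1108, 893.9 and 1139 at day 21 and 120.7, 127.1 and 117.9 at day 150 (log2 change -3.09, SE 0.26, adjusted p = 2.9e-07). Smaller falls met the core enzymes: Hadha, the alpha subunit of the trifunctional protein, had signals of 4148, 4823 and 4569.9 at day 21 and 2453, 2016 and 2651 at day 150 (log2 change -0.93, SE 0.11, adjusted p = 1.8e-05). The peroxisomal thiolase Acaa1a fell by 1.37 on the log2 scale (SE 0.18), the acyl-CoA thioesterase Acot2 by 1.52 (SE 0.24), the long-chain dehydrogenase Acadl by 0.74 (SE 0.11) and Bdh1, which interconverts the ketone bodies, by 0.90 (SE 0.12). The groups of these 7 genes did not overlap.

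Of 32 tested genes of fatty acid and triglyceride synthesis, 12 fell and 2 rose, with a median of -0.39 (-0.41 with the ratios in the model). The count of 12 was 6 without the third array of day 21 or the second of day 150, and the count of 2 was 0 without the second array of day 21 and 1 without the first of day 150. Pklr, the liver pyruvate kinase, had signals of 2713, 2269.9 and 3351 at day 21 and 1060.0, 772.6 and 956.2 at day 150 (log2 change -1.57, SE 0.34, adjusted p = 0.0028), and the desaturase Fads2 fell by 0.88 on the log2 scale (SE 0.19). In the pentose phosphate pathway Pgd, an enzyme of the branch that makes NADPH, fell by 0.90 (SE 0.20) and Taldo1, the transaldolase of the other branch, fell by 0.96 (SE 0.15). Fasn, fatty acid synthase, had signals of 4040.5, 2745 and 6666 at day 21 and 1604, 891.0 and 1232 at day 150, with a wide spread in pups. It passed (log2 change -1.80, SE 0.54, adjusted p = 0.02), but not without the third array of day 21 (log2 change -1.46) or the second of day 150 (-1.58). In cholesterol synthesis 6 of 24 fell and 0 rose, with a median of -0.22, which turned to 0.12 with the ratios in the model. In either direction 25% passed, against 23.6% of all genes. The count of 6 was 2 without the third array of day 21, and 3 without the second or the third of day 150. Over single arrays left out, the median ran from -0.361 to -0.099. Fdps, which makes farnesyl diphosphate, had signals of 4769, 5152 and 8158 at day 21 and 2967, 2197 and 2625 at day 150 (log2 change -1.18, SE 0.26, adjusted p = 0.0028), and Scap, which escorts the SREBP factors, fell by 0.79 (SE 0.12).

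In glucose metabolism 10 of 31 tested genes fell and 2 rose, with a median of -0.22 (-0.37 with the ratios in the model). The count of 2 was 0 or 1 without any 1 array but the first of day 150. Slc37a4, the glucose 6-phosphate carrier of the endoplasmic reticulum, had signals of 7825, 5856 and 6764 at day 21 and 3224, 3716 and 3085 at day 150 (log2 change -1.02, SE 0.14, adjusted p = 6.1e-05). The liver glycogen synthase Gys2 fell by 0.91 on the log2 scale (SE 0.16), pyruvate carboxylase, Pcx, by 0.58 (SE 0.11) and the glucose carrier Slc2a2 by 0.57 (SE 0.12). Of 50 genes of amino acid breakdown 10 fell and 4 rose, with a median of -0.05 (-0.008 with the ratios in the model). This share of genes that fell lies above the 11.5% of all genes, but the median lies near 0 and became 0.03 with equal 75th percentiles. The count of 4 was 2 without the second array of day 21. Gcdh, an enzyme of lysine and tryptophan breakdown, had signals of 7967, 8679 and 8179.6 at day 21 and 3847, 3914 and 4111 at day 150 (log2 change -1.06, SE 0.12, adjusted p = 5.3e-06). The subunits of propionyl-CoA carboxylase fell together, Pcca by 0.88 (SE 0.12) and Pccb by 0.91 (SE 0.16), and the alanine transaminase Gpt by 0.68 (SE 0.12). In oxidative phosphorylation 4 of 73 rose and 7 fell, which is 15.1% against 23.6% of all genes, with a median of 0.05 (-0.26 with the ratios in the model). The 4 were 9 without the first array of day 21, and 2 without the second or the third of day 21 or the second or the third of day 150.

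Enzymes that handle drugs and other foreign compounds changed in both directions. Of 49 tested genes of the first phase (oxidation and hydrolysis), 8 rose and 11 fell, with a median of 0.04 (-0.20 with the ratios in the model). The count of 8 was 4 without the second array of day 150, and 5 without the third array of day 150 or the second of day 21. Cyp2c39, a P450, had signals of 10802, 6402 and 5947 at day 21 and 887.7, 1198 and 1142 at day 150 (log2 change -2.80, SE 0.32, adjusted p = 7.6e-06). Fmo1, a flavin monooxygenase, had signals of 8189, 6830.4 and 7859 at day 21 and 3059.6, 3089 and 3236 at day 150 (log2 change -1.28, SE 0.14, adjusted p = 4.2e-06), and the epoxide hydrolase Ephx1 fell by 1.10 on the log2 scale (SE 0.16). Carboxylesterases parted by member: Ces1f rose by 1.17 (SE 0.15) and Ces2a by 0.89 (SE 0.14), while Ces1g fell by 1.76 (SE 0.24). Of 41 conjugating enzymes 8 rose and 10 fell, with a median of -0.15, which turned to 0.05 with the ratios in the model. The count of 10 was 5 without the first array of day 21, and 6 without the third of day 21, the first of day 150 or the second of day 150. Ugdh, which makes the donor for glucuronidation, rose from 5653, 4011 and 5095 to 12118, 12037 and 12142 (log2 change 1.31, SE 0.15, adjusted p = 9.3e-06). The glycosyltransferases Ugt3a1 (log2 change 2.06, SE 0.19) and Ugt2a3 (1.36, SE 0.16) and the sulfotransferase Sult5a1 (2.05, SE 0.21) also rose. Nnmt, which methylates nicotinamide, had the largest rise among genes whose groups do not overlap (455.7, 51.9 and 27.6 at day 21 and 1713, 8822 and 4524 at day 150; log2 change 5.56, SE 1.11, adjusted p = 0.0015), with the first pup pool well above the other two.

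Genes of the extracellular matrix and of stellate cells were lower in adults. In whole liver, fewer cells of a type and less RNA per cell cannot be told apart. Of 41 tested, 22 fell and 2 rose (1 without the second array of day 150), with a median of -0.82 (-0.79 with the ratios in the model). The summed signal of the 46 genes of the list on the array was 66966 to 67568 at day 21 and 42883 to 52431 at day 150. Col3a1, a fibrillar collagen, had signals of 3919, 5265 and 4536 at day 21 and 997.6, 974.4 and 991.6 at day 150 (log2 change -2.20, SE 0.34, adjusted p = 1.8e-04). Sparc, a secreted protein that binds collagen, had signals of 3358, 4912 and 4772 at day 21 and 490.6, 617.9 and 530.5 at day 150 (log2 change -2.98, SE 0.27, adjusted p = 5.8e-07). Col1a2 fell by 2.26 on the log2 scale (SE 0.39), the basement membrane chains Col4a2 by 1.60 (SE 0.20) and Col4a1 by 1.35 (SE 0.20), and the matrix glycoprotein Ecm1 by 1.46 (SE 0.16). All 3 adult pools lay below all 3 pup pools for each of these 6 genes.

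Genes of the interferon response rose more often than they fell. Of 44 tested, 19 rose and 2 fell, with a median of 0.48 (0.64 with the ratios in the model). The count of 19 was 11 without the third array of day 21 and 9 without the first of day 150, and the count of 2 was 0 or 1 without any other array. Ifi27 had signals of 1815, 1358 and 1719.8 at day 21 and 6282, 5916 and 7382 at day 150 (log2 change 2.01, SE 0.19, adjusted p = 1.1e-06), and Ifi47, a GTPase induced by interferon gamma, had signals of 1154, 1520.3 and 942.5 at day 21 and 4146, 3401 and 3086 at day 150 (log2 change 1.57, SE 0.24, adjusted p = 1.5e-04). The immunoproteasome subunit Psmb9 rose by 1.09 on the log2 scale (SE 0.21) and the factor Irf7 by 0.96 (SE 0.18). Some markers of immune cells moved with them, while 0 of 8 tested markers of T and NK cells passed. The part of immune cells in the result was not tested. Of 30 tested markers of Kupffer cells and macrophages 9 rose and 1 fell, with a median of 0.19 (-0.15 with the ratios), and the summed signal of the 32 on the array was 42952 to 52001 at day 21 and 60795 to 63173 at day 150. The count of 9 was 4 without the third array of day 21 and 5 without the second of day 150, and the 1 that fell did not pass without the first or the second of day 21 or the second of day 150. Without the third array of day 21 the median was 0.049. C6, named above among the male-biased genes, stands in this list too and was among the 9 that rose. Cd5l, a macrophage secreted protein, had signals of 3778, 4019.9 and 2643 at day 21 and 5929.6, 5776 and 6196 at day 150 (log2 change 0.80, SE 0.18, adjusted p = 0.0044), and the pore-forming Mpeg1 rose by 1.08 (SE 0.17). Of 10 genes of MHC class II presentation 2 rose and 1 fell, with a median of 0.61 (0.88 with the ratios, 0.34 without the first array of day 150). The 1 that fell did not pass without the second array of either day. Those that rose were H2-Eb1, with signals of 137.9, 200.7 and 162.7 at day 21 and 397.0, 343.6 and 382.9 at day 150 (log2 change 1.18, SE 0.19, adjusted p = 3.0e-04), and H2-Aa, by 1.14 (SE 0.23). Of 10 tested B and plasma cell markers 3 rose and 0 fell, with a median of 0.65 (0.72 with the ratios) and a summed signal, over 21 on the array, of 4495 to 5577 at day 21 and 6900 to 8545 at day 150. The count of 3 was 1 without the third array of day 21 or the second of day 150. Jchain, which joins antibody units, had signals of 68.4, 100.2 and 102.5 at day 21 and 473.5, 652.5 and 807.1 at day 150 (log2 change 2.82, SE 0.31, adjusted p = 5.7e-06).

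Chaperones of the endoplasmic reticulum (ER) and of the cytosol rose more often than they fell. Of 25 tested ER chaperones and folding genes 10 rose and 0 fell, with a median of 0.45 (0.37 with the ratios in the model). The count of 10 was 6 without the third array of day 21 and 5 without the first of day 150. Hspa5 (BiP), the main ER chaperone, had signals of 21221, 17962 and 19647 at day 21 and 29812, 29765 and 27127 at day 150 (log2 change 0.56, SE 0.14, adjusted p = 0.0077). Creld2, a secreted ER stress protein, had signals of 1439, 1681 and 1599.7 at day 21 and 7979, 4508 and 2788 at day 150, highest in the first adult pool (log2 change 1.57, SE 0.32, adjusted p = 0.0018), and Sdf2l1, a partner of BiP, rose by 1.52 on the log2 scale (SE 0.27). Xbp1, the factor that induces many of these genes, had signals of 14961, 14123 and 14859.8 at day 21 and 21652, 20839 and 20831 at day 150 (log2 change 0.53, SE 0.10, adjusted p = 0.0012). Derl3, which takes part in the export of misfolded proteins, rose by 1.10 (SE 0.31, adjusted p = 0.014) but did not pass without the third array of day 21 (log2 change 0.99) or the first of day 150 (0.73).

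The ER stress response element, with the letters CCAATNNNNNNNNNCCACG, was searched on both strands of the 250 bases before each start. It was found in 0.113% of the 32851 windows in RefSeq's table for GRCm38.p6 and in 10 of the 21 windows of listed ER genes, 1 a gene. Of the 10 genes with the element 4 passed the test, and of the other 11 genes 4 did. The windows of Creld2, Hspa5 and Derl3 are printed because they hold it, in capitals, and rose; they were chosen after their values were seen. They lie at chr15:88819396-88819645 (Creld2), chr2:34771840-34772089 (Hspa5) and chr10:75893148-75893397 (Derl3), all on the plus strand. The element spans bases 126 to 108 before the start of Creld2 and bases 156 to 138 before that of Derl3, both on the opposite strand, and bases 65 to 47 before that of Hspa5.
Creld2: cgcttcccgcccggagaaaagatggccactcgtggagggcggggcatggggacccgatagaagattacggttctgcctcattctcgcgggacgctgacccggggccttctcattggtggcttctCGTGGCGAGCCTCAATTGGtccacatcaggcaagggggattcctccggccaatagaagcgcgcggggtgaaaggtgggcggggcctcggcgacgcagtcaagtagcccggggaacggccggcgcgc
Hspa5: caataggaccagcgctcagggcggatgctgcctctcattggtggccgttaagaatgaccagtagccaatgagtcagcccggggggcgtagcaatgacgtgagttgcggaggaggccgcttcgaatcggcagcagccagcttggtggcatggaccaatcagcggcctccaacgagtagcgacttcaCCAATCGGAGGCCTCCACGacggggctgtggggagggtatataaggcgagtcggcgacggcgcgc
Derl3: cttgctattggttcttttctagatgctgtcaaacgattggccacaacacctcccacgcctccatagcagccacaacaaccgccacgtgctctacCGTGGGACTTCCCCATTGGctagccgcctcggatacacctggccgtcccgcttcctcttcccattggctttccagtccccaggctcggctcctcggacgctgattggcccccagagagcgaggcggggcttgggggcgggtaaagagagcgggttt

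Of 22 tested heat shock genes 10 rose and 2 fell, with a median of 0.39 (0.45 with the ratios in the model). Hspb1, a small heat shock protein that holds unfolded proteins, had signals of 193.1, 175.9 and 134.2 at day 21 and 1943, 2392 and 2309 at day 150, all adult pools far above the pups (log2 change 3.73, SE 0.24, adjusted p = 1.5e-08). Hsph1, which recharges Hsp70 chaperones, had signals of 2991, 1625 and 2324 at day 21 and 8626, 7009 and 6167 at day 150 (log2 change 1.68, SE 0.27, adjusted p = 2.4e-04). The constitutive Hsp70 gene Hspa8 rose by 0.67 on the log2 scale (SE 0.13) and Hspb8 by 1.10 (SE 0.18). Cirbp, an RNA-binding protein that is induced by cold and not by heat, went the other way, with signals of 387.6, 630.1 and 517.9 at day 21 and 161.6, 232.1 and 281.6 at day 150 (log2 change -1.19, SE 0.29, adjusted p = 0.0061).

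Among 33 tested transcription factors of the hepatocyte 9 rose and 3 fell, with a median of 0.23 (0.29 with the ratios in the model). The count of 3 was 0 without the second array of day 21 or the first of day 150, and 1 without the third of day 21. Hnf4a, a central factor of hepatocyte identity, had signals of 8510.1, 7988 and 8793 at day 21 and 11310.3, 13242 and 11801 at day 150 (log2 change 0.52, SE 0.11, adjusted p = 0.0026), and Cebpa had signals of 3345, 4489 and 4355 at day 21 and 6625, 6484 and 6307 at day 150 (log2 change 0.68, SE 0.14, adjusted p = 0.0016). The estrogen receptor gene Esr1 rose by 0.96 on the log2 scale (SE 0.18) and Onecut2 by 0.98 (SE 0.22). The groups did not overlap for any of these 4 genes. Secreted defence proteins moved as follows. Of 30 acute phase genes 6 rose and 0 fell, so that 20% passed against 23.6% of all genes. The median was 0.20 (0.12 with the ratios). It was 0.058 without the second array of day 150 and 0.314 without the first of day 21. Saa4, a constitutive serum amyloid, had signals of 6569, 5502 and 5749.5 at day 21 and 19357, 24217 and 19171 at day 150 (log2 change 1.81, SE 0.22, adjusted p = 1.4e-05), and Orm1 (0.94, SE 0.17) and the iron hormone gene Hamp (0.77, SE 0.17) showed smaller log2 rises. In complement and coagulation 9 of 39 rose and 10 fell, with a median of 0.09 (-0.21 with the ratios). The count of 10 was 6 without the second array of day 21 or the third of day 150. Among the genes that rose were those of complement components, Hc by 0.95 (SE 0.17) and C2 by 0.94 (SE 0.15). Among those that fell were clotting factors: F11 fell by 1.58 (SE 0.21), F10 by 0.81 (SE 0.12) and F7 by 0.63 (SE 0.09). Hgfac, which activates hepatocyte growth factor, fell by 1.19 (SE 0.17).

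Clock genes that peak near dusk rose in 3 of 12 cases and fell in 0, with a median of 0.74 (1.46 with the ratios in the model), and the count was 7 without the first array of day 150 and 1 without the second (median 0.46). Thus 25% of the list passed, against 23.6% of all genes. Per2, a core repressor of the clock, had signals of 60.2, 73.2 and 69 at day 21 and 182.9, 474.5 and 343.3 at day 150, uneven among adults (log2 change 2.20, SE 0.40, adjusted p = 6.8e-04). Outside this list, Noct, a rhythmic phosphatase of NADPH, had signals of 605.6, 143.4 and 127.7 at day 21 and 2590.5, 6440.0 and 7992 at day 150, with the first pup pool and the first adult pool apart from the others of their day (log2 change 4.52, SE 0.50, adjusted p = 5.5e-06). Age and the unknown hour of sampling cannot be told apart for these genes.

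Several of the largest changes lay outside the lists above. The retinoic acid hydroxylase Cyp26a1 rose by 3.83 on the log2 scale (SE 0.69; 2.49 with 50 added), Cyp46a1, which hydroxylates the side chain of cholesterol, by 3.73 (SE 0.52; 2.80), the ferritin receptor Scara5 by 4.07 (SE 0.53; 3.34), the lipocalin Obp2a by 4.60 (SE 0.58; 3.28), the sodium and calcium exchanger Slc8a1 by 4.11 (SE 0.67; 2.39) and the phosphatase inhibitor Ppp1r1b by 3.62 (SE 0.67; 1.75). Akr1c18, which inactivates progesterone, had signals of 698.6, 582.9 and 818.7 at day 21 and 6, 56.4 and 39.4 at day 150 (log2 change -4.87, SE 0.68, adjusted p = 6.8e-05; -3.20 with 50 added). The zinc carrier Slc39a5 had signals of 460.2, 439.5 and 436.0 at day 21 and 5.5, 21.8 and 31.8 at day 150 (log2 change -4.83, SE 0.72, adjusted p = 1.3e-04; -2.85 with 50 added), and the organic anion carrier family member Slc22a29 fell by 4.01 (SE 0.53; -3.44 with 50 added). All 9 genes were picked among those whose groups do not overlap, so adding 50 could change the size but not the direction. The lower group was dim for most, so that the sizes are imprecise.

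The change with age was then set beside that in the other maternal diet groups, which share no array with it. In control offspring 1959 genes (17.8%) passed and after high protein in lactation 2830 (25.7%). Of the 2602 genes called after high protein in pregnancy, 1428 also passed in control with the same sign, which is 54.9% of the former and 72.9% of the latter, and 0 passed with the opposite sign. In all, 2547 of the 2602 had the same sign in control and 2514 after high protein in lactation. Across genes the log2 changes correlated at r = 0.80 (Spearman's rho 0.74) with control and r = 0.78 with high protein in lactation, where all groups share the array type and the split of RNA quality by day. In control Cyp7b1 changed by 4.40 and Sult2a2 by -9.85 on the log2 scale, and the list medians were 1.43 for male-biased, -2.16 for female-biased, -0.92 for matrix and -0.56 for fatty acid oxidation genes. Medians that lay farther apart included those of cholesterol synthesis (-0.22 against 0.26 in control), of the dusk clock genes (0.74 against -0.22), of the amino acid response (-0.86 against -0.58), of lipogenesis (-0.39 against -0.14, with 12 and 5 genes that fell), of hepatocyte transcription factors (0.23 against -0.01), of fetal liver genes (-0.43 against -0.65) and of the interferon response (0.48 against 0.69). Clock genes listed for the phase of Bmal1, of which 5 were tested, had 0.15 against 0.72. Markers of T and NK cells had -0.07 against 0.50, and erythroid markers 0.18 against 0.59. Glucocorticoid and fasting genes had -0.06 against -0.47, and pericentral genes -0.20 against -0.46. Those differences of medians were not tested.

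**Figure D4:**
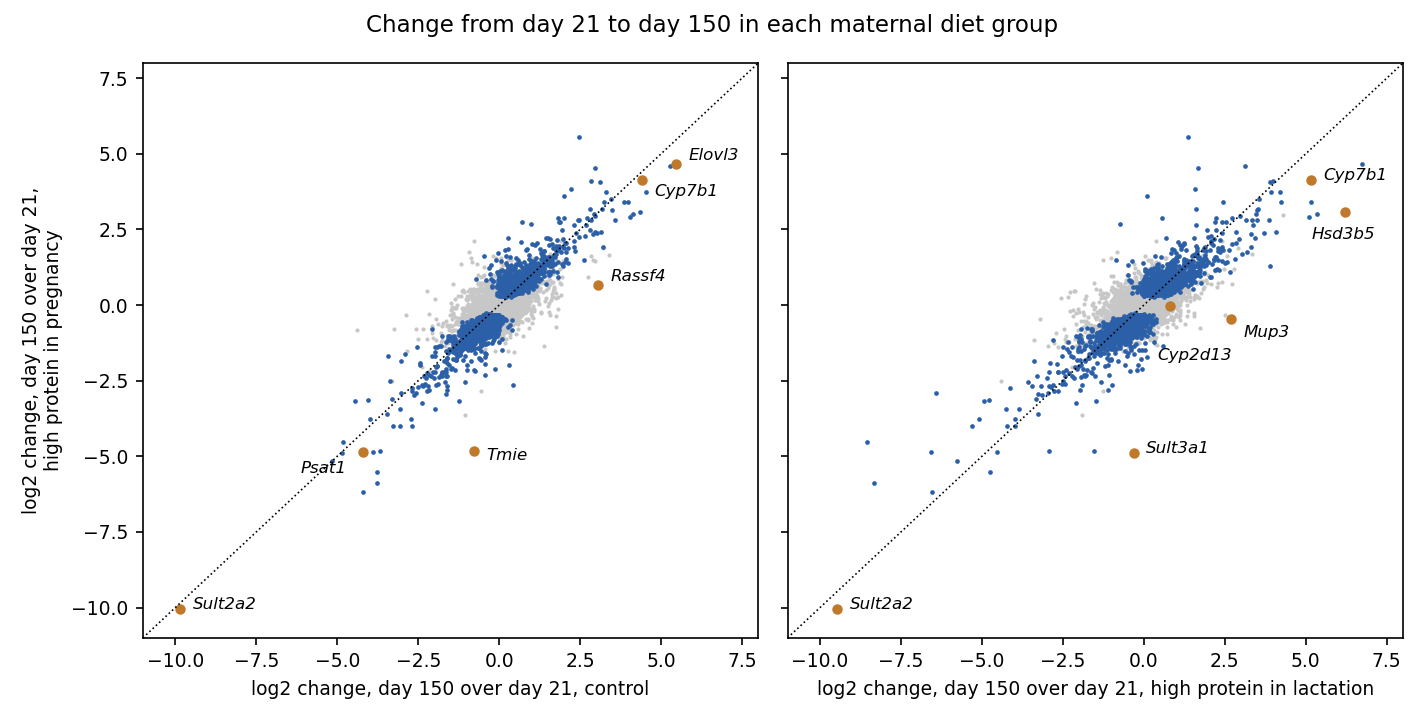
Each point is 1 of 11018 genes, placed by its log2 change from day 21 to day 150 after high protein in pregnancy (vertical) and in control (left) or after high protein in lactation (right); blue points passed after high protein in pregnancy, orange points are labelled genes, and the dotted line marks equal change. Most points lie along the line (r = 0.80 and 0.78 across genes), with Tmie and Rassf4 off it on the left and Mup3 and Sult3a1 on the right.

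The difference between the changes was tested gene by gene. Against control, 2 of 11018 genes (0.0182%) passed and both were lower, while 426 had an unadjusted p under 0.05. Tmie, a membrane protein of the hair cell channel complex of the inner ear, had signals of 351.4, 511.4 and 351.9 at day 21 and 17, 19.3 and 8.3 at day 150 after high protein in pregnancy. In control they were 380.4, 271.9 and 403.7 at day 21 and 133.3, 141.7 and 442.4 at day 150, with the third adult array of control as high as the pups. The difference of the log2 changes was -4.06 (SE 0.65, adjusted p = 0.035). The pregnancy signals of day 150 lie far below 57.5, so the size is imprecise: with 50 added the difference was -2.18 and did not pass. It was -2.84 and -2.29 on the other 2 probe sets of the gene. Rassf4, a member of the Ras association family, had signals of 240.7, 161.6 and 116.2 at day 21 and 281.9, 215.3 and 286.8 at day 150 after high protein in pregnancy and 94.1, 93.1 and 89.5 at day 21 and 764.1, 832.1 and 722.0 at day 150 in control. Its rise was thus smaller, with a difference of -2.42 (SE 0.35, adjusted p = 0.017), and the other 2 probe sets gave -0.99 and -0.40. The second control array of day 21 carried strong Xist signal; without it and the lactation array named below, Tmie did not pass (-3.88) and Rassf4 gave -2.42. Both calls were lost when single arrays were left out. Tmie did not pass without any 1 of 9 arrays (log2 difference -4.36 to -3.50 over the 12 arrays left out) and Rassf4 did not without any 1 of the 3 control arrays of day 21 or the second pregnancy array of day 21 (-2.67 to -2.15).

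Against high protein in lactation, 2 of 11018 genes (0.0182%) passed, both lower, and 888 had an unadjusted p under 0.05. Array 4 of the lactation group at day 150 carried strong Xist signal (11644), unlike the pregnancy arrays, so values without both Xist arrays are given too. Mup3 had signals of 1309, 3744 and 3913 at day 21 and 23580.0, 15440.4 and 14423 at day 150 after high protein in lactation, a rise of 2.70 on the log2 scale, against a change of -0.45 after high protein in pregnancy. The difference was -3.15 (SE 0.42, adjusted p = 0.0049; -2.93 without the Xist arrays), and the 3 lactation arrays of day 21 lay below all other arrays. Mup genes are close copies of each other, so the probe set may read several; the other Mup3 set was dim (mean signal 12.7) and gave a difference of 0.34. Cyp2d13, a P450, had signals of 4866, 5498 and 5252 at day 21 and 5306, 5169.5 and 4842 at day 150 after high protein in pregnancy and 3627, 3372 and 3728 at day 21 and 6454, 5847 and 6378 at day 150 after high protein in lactation. Here too the lactation arrays of day 21 were the low ones, and the difference was -0.83 (SE 0.14, adjusted p = 0.049), or -0.95 on the other probe set of the gene. Without the Xist arrays it was -0.80 and did not pass. It did not pass when any 1 of 9 arrays was left out (-0.87 to -0.79 over the 12 left out). Hsd3b5 rose by 3.09 after high protein in pregnancy and by 6.21 after high protein in lactation, but the difference of -3.12 (SE 0.60, adjusted p = 0.082) did not pass; it did without the second lactation array of day 21 (-3.58). Sult3a1 fell by 4.88 after high protein in pregnancy, and its log2 change after high protein in lactation was -0.31; the difference of -4.57 (SE 1.03, adjusted p = 0.16; -4.66 without the Xist arrays) did not pass.

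**Figure D5:**
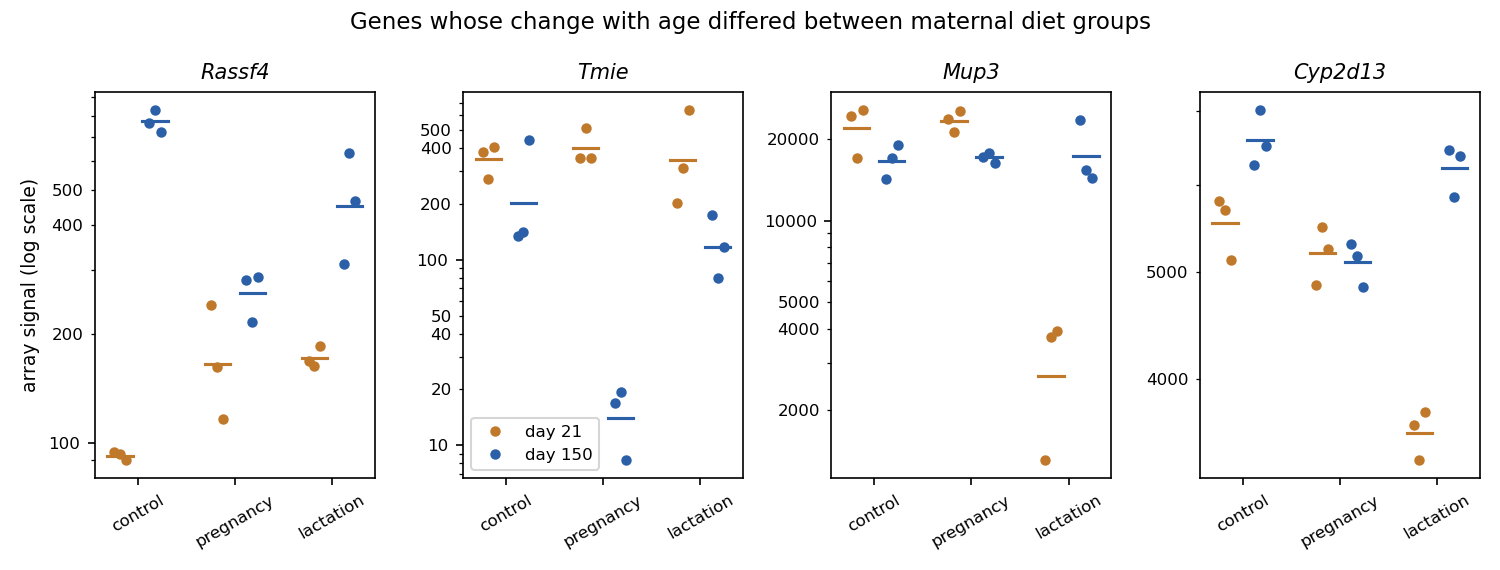
Points are the array signals (log scale) of the 3 arrays at each day in control offspring and after high protein in pregnancy or in lactation, and bars are geometric means, for the 4 genes whose change with age differed. The 3 pregnancy arrays of day 150 are the lowest for Tmie (8.3 to 19.3), and the 3 lactation arrays of day 21 are the lowest for Mup3 and Cyp2d13.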

How the data were processed

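Liver RNA was measured on 18 Affymetrix mouse genome arrays, of which 6 enter the main comparison. The authors deposited 1 signal intensity per probe set, from the MAS5 method of GCOS 1.4, per the submitters' processing notes. Values are linear, and the trimmed mean of every array (2% left out at each end) was 500.0, so no further scaling was applied. The number of arrays limits the precision.

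Dim probe sets, with a mean log2 signal under the median over all but the control sets (57.5 as a signal), were dropped, and the brightest set that names 1 gene was used for each gene. This left 11018 genes. Of 45101 probe sets, 34945 name 1 gene symbol, 932 several and 9160 none in the platform annotation.

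A linear model with 1 mean per group was fitted to the log2 signal (0 added) of all 18 arrays, which share one estimate of the spread, with limma 3.58.1 in R 4.3.3, using lmFit, contrasts.fit and then eBayes with a mean-variance trend. All tests are two-sided, with Benjamini-Hochberg adjustment over the 11018 genes and a threshold of 0.05. "Rose" and "fell" are used of genes that passed. The contrasts were day 150 against day 21 after high protein in pregnancy, and the difference of that change from the change in control and in the lactation group. Gene lists are described by counts and medians. "Ratios in the model" means the log2 3′/5′ ratios of the Gapdh and Actb control sets as covariates.

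The genes and lists were chosen with earlier results of these data known. Named genes are the 12 per direction with the largest change among those past the threshold with groups that do not overlap, up to 8 per list by smallest p, up to 6 per direction for each difference, and a fixed set of liver genes; the text names a subset of these. On simulated data with the real means and spreads (10 simulations), the test of age found 21.6% of the log2 changes of size 0.5, 68.8% of those of size 1, 85% at 1.5 and 94.8% at 2. Of its 1421 calls, 70 were false. For the difference from control it recovered 40.8% of differences of 1 and 86.6% of 2, and 66 of 1081 calls were false. Over all 10 simulations only 500 changes of each size were made, a smaller share of genes than the 23.6% that passed here. Recovery depends on that share, so these rates need not hold for the real comparison.

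Replicate numbers were not used as pairs: deviations of same-numbered arrays correlated at -0.083, -0.046 and 0.027. Alternatives covered the filter, the scaling, an added 50, the choice of probe sets, eBayes without trend, array weights, a threshold of 0.10, the compared arrays alone, a replicate block, the arrays with Xist signal (control day 21 and lactation day 150, 1 each) left out, the 3′/5′ ratios, and each array left out. Promoter windows came from RefSeq (GRCm38.p6). Figures were drawn with matplotlib 3.10.9.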

Additional observations from a re-analysis of the deposited data

Results flagged for a closer look

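The test of a difference between maternal diet groups picked out 4 genes. Against control, the log2 change from day 21 to day 150 after high protein in pregnancy differed by -4.06 for Tmie and by -2.42 for Rassf4. Against high protein in lactation it differed by -3.15 for Mup3 and by -0.83 for Cyp2d13. For Tmie the pregnancy arrays of day 150 were the low ones, at 8.3 to 19.3 and so below the filter signal of 57.5; the difference was -2.18 with 50 added, and the call was lost under 17 of 25 alternatives. Rassf4 was lower in control than after high protein in pregnancy at day 21 and higher at day 150, on all 3 arrays each. For Mup3 and Cyp2d13 the lactation arrays of day 21 were the low ones.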

How the results depend on the processing

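The count of genes that changed with age (2602) stayed within 1.5 times under most alternatives. It moved further with 5: it was 4171 of 19349 with every kept probe set, 4275 with array weights and 3 with the 3′/5′ ratios in the model. Leaving out 1 array gave 1643 to 2477, with the second (1663) and the third (1643) array of day 21 past 1.5 times. The replicate block gave 2520 over all arrays and 2581 with the compared arrays alone. Without a block, the compared arrays alone gave 3048. Of 130 genes named as changed, 129 lost their call with the ratios and 0 changed sign under any alternative; besides, Sult1e1 lost it with 50 added and Asns, Fasn and Derl3 when single arrays were left out.

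The 2 differences from control became 1 without a filter, with the filter at the 70th percentile, with 50 added, with every kept probe set, without the arrays with Xist signal, with the ratios and with the replicate block over all arrays, 0 with the block on the compared arrays alone or with eBayes without trend, and 0 to 2 when 1 array was left out. The 2 differences from lactation became 1 without a filter, with equal 75th percentiles, without the arrays with Xist signal or with the ratios, 0 with eBayes without trend, 5 with quantile normalization, 7 with 50 added, 8 with every kept probe set or array weights, 10 at a threshold of 0.10 and 1 to 11 when 1 array was left out. With the block the change with age also passed for Rassf4 (0.65, all arrays) and Mup3 (-0.45, compared arrays alone), and no other printed call of the change with age changed. The difference from control did not pass for Tmie with either block. For Rassf4 it did not pass with the block on the compared arrays alone. The lactation groups share no replicate numbers, so their difference has no such fit.

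Among the named results, changes of sign met values that had not passed and list medians. With the ratios, Alb became -0.55, Igf1 -0.14 and Rassf4 -0.15, and the medians became 0.049 for conjugating enzymes, 0.12 for cholesterol synthesis, -0.21 for complement and coagulation and -0.15 for Kupffer cell markers. They also became -0.47 for hepatocyte markers, -0.26 for oxidative phosphorylation, -0.29 for the growth hormone and IGF axis and -0.20 for enzymes of the first phase. The complement median was also -0.0021 with quantile normalization and -0.050 with every kept probe set, the fetal liver median 0.0034 with the filter at the 70th percentile and the cell cycle median 0.030 without a filter. Cyp2d13 became 0.051 with equal 75th percentiles and lay between -0.075 and 0.013 with 1 array left out, and Igf1 between -0.041 and 0.136. Signals below 57.5 have little precision, and 3 arrays a group limit every test.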

Other observations

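Of the T and NK cell markers, 8 of 27 were bright enough to be tested and 0 passed in either direction. The summed signal of 19 neutrophil markers was 2368 to 3478 at day 21 and spread from 1919 to 12316 at day 150, where 1 array stood apart. Exocrine pancreas markers, of which 2 of 13 passed the filter on dim probe sets, summed to 2538 to 3016 at day 21 and 7621 to 8301 at day 150. Of the 2 tested, 1 rose and 1 fell. In control the sum was 2270 to 3272 at day 21 and 6426 to 7938 at day 150. The source of this signal was not tested.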
